A study of Mus musculus with 8 samples.

Results

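Mouse embryonic stem cells in which 1 of 3 enhancers had been removed were compared, as 1 side, with their unedited parent cells. The edited side held 6 samples, the 2 samples each of the E1-KO, E2-KO and E3-KO lines, and the other side held 2 wild-type (WT) samples; these 8 samples are the whole series. All were E14TG2a cells of the 129/Ola strain at passages 3 to 6, grown on gelatin without feeder cells, with serum, LIF and inhibitors of GSK3 (CHIR99021) and MEK (PD0325901), which WT cells received too. The edited lines had been made with CRISPR/Cas9, and total RNA was sequenced. The labels call the 2 samples of a group biological duplicates and tie the work to enhancer and promoter contacts and to the functions of Sox2. The labels used here give neither the positions of the removed enhancers nor the number of clones behind a line, and no edited line with intact enhancers was among the samples. What the 6 edited samples share is therefore loss of some enhancer together with having been through the editing itself, and these cannot be told apart.

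Members were the genes whose 6 edited values were all above, or all below, the pair of WT values. Of 11268 genes whose mean reached 1 FPKM (fragments per kilobase of transcript, scaled to the mapped fragments of a library) over the 8 samples, 4935 met that order. In 1722 of them (15.3% of the tested genes) every edited sample lay above both WT samples, and in 3213 (28.5%) every edited sample lay below. Near the edge of this rule, Ap4s1 was just inside, with its lowest edited sample at 1.83 FPKM and its higher WT sample at 1.83 FPKM, and Gba2 just outside, with 4.55 FPKM on either side. Kif24 was just inside in the other direction, with 11.5 FPKM on either side, and Gjb5 just outside, with 22.0 FPKM on either side.

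Enhancers are stretches of DNA that bind transcription factors and raise transcription from promoters at a distance, so removing an enhancer can act on the genes it contacts and, through them, on others. In stem cells held in LIF with inhibitors of GSK3 and MEK, LIF acts through STAT3, the GSK3 inhibitor stabilises beta-catenin and so opens the WNT programme, and the MEK inhibitor holds down ERK signalling. Together they keep the naive pluripotent state, in which SOX2, OCT4 (Pou5f1), ESRRB, KLF4 and TFCP2L1 support each other's transcription, while DNA methylation is low.

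Sox2, which encodes a transcription factor required in these cells, was lower in all 6 edited samples. It stood between 58.03 and 114 FPKM (median 94.2) in the edited samples and at 130.5 and 136 FPKM in WT. The pooled difference was -0.66 on the log2(FPKM + 1) scale (SE 0.085, adjusted p = 0.000419, limma with Benjamini-Hochberg adjustment). The lines differed in size, with differences from WT of -1.16 (E1-KO), -0.34 (E2-KO) and -0.50 (E3-KO) (adjusted p = 0.00178, limma F test among the lines). In these bulk samples fewer cells with a transcript and less of it per cell cannot be told apart. The Sox2ot gene overlaps Sox2 in the annotation, and whether strand was used in counting is not given in the sources used here.

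The other defining genes of stem cells were high in every sample. All 10 stem cell markers were measured, and the lowest of them reached at least 136 FPKM in some sample. Their summed level lay between 2252 and 2845 FPKM in the edited samples and at 2908 and 3007 FPKM in WT. Klf4, Tfcp2l1, Sox2, Dppa5a and Esrrb were called lower and Pou5f1 higher. Pou5f1 stood between 428 and 553 FPKM (median 456) in the edited samples against 360.0 and 382 FPKM in WT (log2 0.33, adjusted p = 0.0329, limma), so the genes for SOX2 and OCT4 moved in opposite directions. The call of Pou5f1 was lost under quantile normalization, without the E1-KO line and at an adjusted p under 0.01. Nanog, at 450.4 and 467 FPKM in WT, overlapped between the groups. Of 11 fibroblast feeder markers, 8 stayed under 1 FPKM in every sample, among them Col1a2, Col3a1 and Dcn. Of the other feeder markers, Thy1 and Acta2 were called higher at low levels, with Thy1 between 1.23 and 2.85 FPKM (median 2.54) against 0.695 and 0.8402 FPKM. The summed level of the feeder markers lay between 4.55 and 11.5 FPKM in the edited samples and at 3.41 and 3.51 FPKM in WT. Of the primitive endoderm markers, Sox17, Sox7, Pdgfra and Foxa2 stayed under 1 FPKM in every sample, and Sparc alone was called higher, between 133 and 231 FPKM (median 150.5) against 87.9 and 94.2 FPKM. It carried most of their summed level, which lay between 134 and 236 FPKM in the edited samples and at 89.5 and 95.8 FPKM in WT. What part cells of these kinds had in the results was not tested.

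A gene is called here when its order met the rule and the pooled difference also passed limma's moderated test at an adjusted p under 0.05. The error in that test is the spread between the 2 samples of each group, and the spread between lines does not enter it. Calls numbered 4387 genes, 38.9% of those tested, of which 1494 were called higher (13.3%) and 2893 lower (25.7%). The median size of a called change was 0.58 for genes called higher and -0.56 for genes called lower, and 198 and 353 genes changed by at least 1 on the log2 scale. A further 913 genes passed the test without meeting the order. In a 2-group fit, where the spread between lines enters the error, 1009 genes were called higher and 1924 lower. Summed FPKM lay between 454974 and 532007 per sample. Read depth relative to WT replicate 1 was inferred as between 0.786 and 1.01, with the absolute depth unknown. It was taken from the most frequent ratio of values under 0.3 FPKM, and only 7.8% to 14.5% of these ratios lay there. The 6 edited samples correlated with WT samples at 0.941 to 0.960 over genes. The range was 0.954 to 0.982 between edited lines, which overlaps the first, and 0.985 to 0.994 within a group.

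The split into higher and lower rests on the scale of the deposited values, in which the median tested gene already lay -0.09 below WT. With median-ratio scaling the median was 0.00 and the called genes were 2092 higher and 2155 lower, and with quantile normalization 2012 and 2183. All 1494 higher genes and 2155 of the lower genes kept their call under median-ratio scaling. Each count is therefore to be read against 13.3% higher and 25.7% lower. The comparison also leans on 2 WT samples of 1 line: without WT replicate 1 the calls were 929 higher and 2023 lower, and without WT replicate 2 they were 930 and 1574. Of 218 called genes named in the text, 43 lost their call without WT replicate 1 and 48 without WT replicate 2. When each line was reduced to its mean, so that 3 edited values stood against 1 WT value, 1 gene passed in either direction, and 2300 genes had an unadjusted p under 0.05 in limma.

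The genes that fell most held a wide mix of functions: calcium binding, lactate and acetate metabolism, WNT output, germline RNA and the IGF axis. S100a1, a small calcium-binding protein of the S100 family, stood at 43.4 and 47.2 FPKM in WT and between 2.71 and 5.56 FPKM (median 3.85) in the edited samples. Its pooled log2 difference was -3.22 (SE 0.15, adjusted p = 8.32e-06, limma), the largest fall among the genes considered. Its neighbour on chromosome 3, S100a13, went from 16.9 and 20.6 FPKM to levels between 2.02 and 3.81 FPKM (median 3.06). Calb2, which encodes the calcium buffer calretinin, stood between 1.23 and 3.23 FPKM (median 2.11) after editing and at 18.8 and 20.5 FPKM in WT. That no edited sample came near a WT sample in these 3 calcium-binding genes follows from their choice as the largest falls among called genes. Of 19 tested S100 and EF-hand genes 11 were not called.

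Trpm1, a cation channel gene of retina and melanocytes, fell from 22.4 and 23.02 FPKM to levels between 1.26 and 4.77 FPKM (median 3.02), and its annotated span holds a microRNA gene, Mir211. Sp5, a transcription factor gene and a direct target of WNT signalling, fell from 9.07 and 10.8 FPKM to levels between 0.368 and 1.25 FPKM (median 0.945). Ldhb, a lactate dehydrogenase subunit, was the most abundant gene among the 12 largest falls, with 224 and 227 FPKM in WT and levels between 17.8 and 53.4 FPKM (median 46.3) in the edited samples. Igfbp4, which binds insulin-like growth factors outside the cell, fell from 13.5 and 14.98 FPKM to levels between 0.755 and 3.42 FPKM (median 1.5). The rest of the 12 were Ablim1 (actin binding), Tdrd12 (germline small RNA pathway), Copz2 (vesicle coat), Patl2 (RNA binding in oocytes) and Acss1 (mitochondrial acetate activation), with pooled log2 differences from -2.48 to -2.23.

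The genes that rose most included a DNA methylation factor, a chromatin remodelling subunit and several genes better known from blood or nerve cells. Cd37, a tetraspanin gene of lymphocytes, stood at 1.17 and 2.02 FPKM in WT and between 7.76 and 21.5 FPKM (median 15.1) in the edited samples (log2 2.53, SE 0.16, adjusted p = 2.26e-05, limma); it overlaps Tead2 in the annotation. Dnmt3l, the cofactor of the de novo DNA methyltransferases, rose from 8.38 and 8.69 FPKM to levels between 39.5 and 67.3 FPKM (median 47.05). Dpf1, a subunit of the neuronal form of the BAF remodelling complex, rose from 1.86 and 4.62 FPKM to levels between 15.1 and 23.02 FPKM (median 18.96). Etv1, an ETS transcription factor gene that ERK signalling usually raises, rose from 2.21 and 2.34 FPKM to levels between 12.5 and 16.3 FPKM (median 14.5).

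Arhgdib, an inhibitor of the cycling of small GTPases, rose from 2.05 and 2.51 FPKM to levels between 8.57 and 19.96 FPKM (median 13.8). Nefh, the heavy neurofilament chain, rose from 2.32 and 2.401 FPKM to levels between 9.58 and 15.6 FPKM (median 11.8). Hist1h2ad, a replication-dependent histone H2A gene, was the most abundant of the 12 largest rises, with 22.6 and 22.6 FPKM in WT and levels between 61.8 and 151 FPKM (median 84.8) in the edited samples. Others were Tppp3 (tubulin binding), Vill (actin binding), Myo1f (a class I myosin of blood cells) and Zp3 (egg coat), with pooled log2 differences from 1.92 to 2.12. Of 6 blood markers listed beside Cd37 and Myo1f, 3 were measured here, and the 1 that reached the filter for testing was not called. The 3 had a summed level of 2.81 and 3.23 FPKM in WT and 2.00 to 5.39 FPKM in the edited samples. The 23 genes named here as the largest falls and rises kept their call in the alternatives that still tested them with at least 2 samples per group. Leaving out chromosome 6 removed Ldhb and Arhgdib, and the filter at a mean of 5 FPKM removed lower genes such as Sp5. The threshold on size could not remove any, as they were chosen by size. With lines reduced to means, which leaves 1 WT value, the calls were lost.

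**Figure D1:**
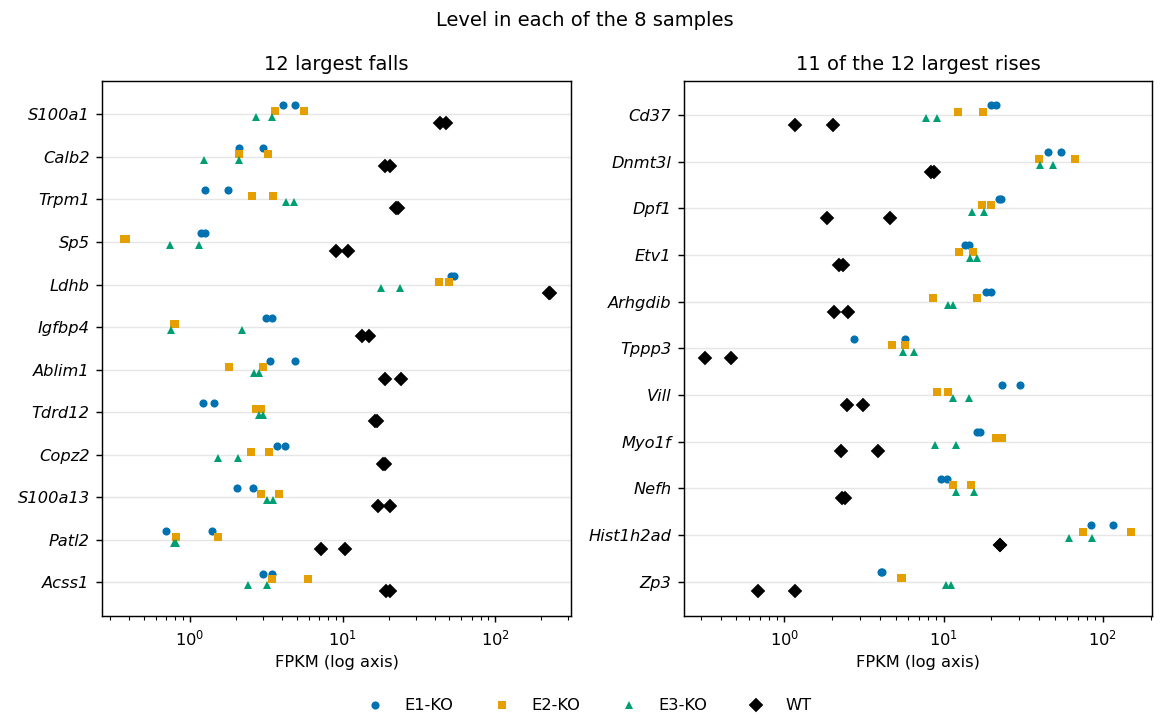
FPKM on a log axis for the 12 called genes with the largest falls (left) and 11 of the 12 with the largest rises (right), with 2 points per group in each gene's row: WT black diamonds, E1-KO blue circles, E2-KO orange squares, E3-KO green triangles. The separation of edited points from WT diamonds follows from the definition of a call, and the plot shows its size: S100a1 goes from 43.4 and 47.2 FPKM to levels between 2.71 and 5.56 FPKM (median 3.85), and Cd37 from 1.17 and 2.02 FPKM to levels between 7.76 and 21.5 FPKM (median 15.1).

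Some genes moved by nearly the same amount in all 3 lines. Among called genes for which the F test among the lines gave an adjusted p over 0.5, the largest rises were in Dnmt3l, Etv1 and Hist1h2ba and the largest falls in Patl2, Ccdc107 and Rdh13. Etv1 differed from WT by 2.19, 2.18 and 2.33 in lines E1-KO to E3-KO, and Dnmt3l by 2.42, 2.46 and 2.24 in the same order. Hist1h2ba, a testis-type histone H2B gene, differed by 1.57, 1.63 and 1.75. Patl2 differed by -2.26, -2.17 and -2.43. In the annotation Patl2 overlaps B2m and Trim69 and Dnmt3l overlaps Aire, all on opposite strands, so without knowing that strand was used their reads cannot be told apart. Ccdc107 fell from 376 and 499.8 FPKM to levels between 57.1 and 139 FPKM (median 89.9), but its span holds Rmrp, the RNA of RNase MRP, so its reads may belong to either. Rdh13, a retinol dehydrogenase gene, rested on 1 library: WT replicate 1 stood at 140.2 FPKM and WT replicate 2 at 12.2 FPKM, against between 7.51 and 10.3 FPKM (median 9.56) in the edited samples. A high p of the F test does not show that the lines were equal.

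The upstream sequences of 3 genes with almost equal changes in the lines are shown as promoters of genes that moved together in all edited samples. They are the 250 bases before a RefSeq start in GRCm38.p6 (1 of 2 starts listed for Etv1, 1 of 3 for Dnmt3l and the 1 listed for Axin2), on the forward strand, and capitals mark a match, on either strand, to any of the 9 motifs listed further on. Etv1 was higher, Dnmt3l higher and Axin2 lower in all 6 edited samples.
Etv1, chr12:38779832-38780081: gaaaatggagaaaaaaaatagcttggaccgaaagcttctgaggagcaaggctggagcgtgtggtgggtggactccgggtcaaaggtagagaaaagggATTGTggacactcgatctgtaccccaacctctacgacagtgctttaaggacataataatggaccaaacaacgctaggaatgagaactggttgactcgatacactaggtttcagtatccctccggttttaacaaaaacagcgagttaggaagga
Dnmt3l, chr10:78042037-78042286: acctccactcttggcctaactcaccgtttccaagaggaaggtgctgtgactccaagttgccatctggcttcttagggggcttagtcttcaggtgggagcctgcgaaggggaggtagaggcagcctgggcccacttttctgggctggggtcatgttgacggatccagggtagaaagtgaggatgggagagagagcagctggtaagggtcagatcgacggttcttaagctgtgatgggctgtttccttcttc
Axin2, chr11:108920099-108920348: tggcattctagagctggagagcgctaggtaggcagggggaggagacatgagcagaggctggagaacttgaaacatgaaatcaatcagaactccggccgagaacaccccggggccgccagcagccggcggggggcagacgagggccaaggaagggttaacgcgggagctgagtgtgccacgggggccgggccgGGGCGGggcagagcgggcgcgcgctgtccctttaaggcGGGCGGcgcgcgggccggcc
The Etv1 stretch held ATTGT, the complement of the short SOX core ACAAT, the Axin2 stretch held GGGCGG at 2 places, and the Dnmt3l stretch held none of the motifs.

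Over all called genes, promoter motifs differed little between directions. RefSeq windows of 250 bases before to 50 after a start were matched by symbol for 1132 of the 1494 genes called higher, 2276 of the 2893 called lower and 8763 of all tested. The SOX core ACAAT was in 22.0% of windows of genes called higher, 20.5% of genes called lower and 20.3% of all tested genes. The longer SOX2 forms ACAATGG and CATTGTT, which contain that core or overlap with it, were in 2.39% and 2.11% of the windows of genes called higher, 2.12% and 1.40% of genes called lower, and 2.00% and 1.76% of all tested. The octamer ATGCAAAT of OCT4 was in 1.20%, 1.34% and 1.27%. The E-box CACGTG was in 10.6%, 12.2% and 10.4%, the CRE TGACGTCA in 2.39%, 3.22% and 3.16%, and the GC box GGGCGG in 63.1%, 67.4% and 64.0%. CCAAT was in 36.6%, 37.8% and 38.2%, and TATAAA in 6.62%, 7.06% and 6.66%. Both strands were searched, and the largest gap between the directions was that of the GC box.

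In the pathways that the GSK3 inhibitor and LIF act on, the share called lower was above the 25.7% over all tested genes. It was 53.1% in the WNT list and 40.9% in the LIF and STAT3 list. Of 32 tested genes of the WNT pathway and its targets, 17 were called lower and 2 higher, with a median difference of -0.34. The targets Sp5 and Axin2 and the homeobox gene Cdx1 fell most. Axin2, which encodes a negative feedback scaffold, stood between 5.07 and 6.29 FPKM (median 5.81) in the edited samples and at 18.8 and 20.6 FPKM in WT, and its difference was -1.60, -1.61 and -1.64 in the 3 lines. Ctnnb1, the gene for beta-catenin itself, fell from 221 and 225 FPKM to levels between 112 and 161 FPKM (median 131), and Tcf7, a transcription partner of beta-catenin, from 26.3 and 27.8 FPKM to levels between 13.4 and 18.9 FPKM (median 17.8). The 2 members called higher were Porcn, the acyltransferase that prepares WNT ligands for secretion, from 1.49 and 1.998 FPKM to levels between 3.62 and 8.09 FPKM (median 6.44), and Tcf7l1, the repressive TCF, from 33.5 and 35.4 FPKM to levels between 40.6 and 63.3 FPKM (median 57.8).

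Of 22 tested genes of the LIF and STAT3 pathway, 9 were called lower and 2 higher, with a median of -0.30. Pim1, a kinase gene induced by STAT3, fell most, from 98.1 and 110.1 FPKM to levels between 37.4 and 45.6 FPKM (median 40.4). Socs2, a feedback inhibitor, stood between 13.3 and 28.3 FPKM (median 20.3) against 38.8 and 40.7 FPKM, and Tyk2, a Janus kinase, between 4.89 and 7.298 FPKM (median 6.61) against 10.7 and 11.96 FPKM. Stat3 was itself lower, between 35.2 and 42.98 FPKM (median 35.8) against 46.8 and 60.5 FPKM, as was the receptor gene Lifr, between 16.1 and 24.3 FPKM (median 20.5) against 26.3 and 27.8 FPKM. Lower calls in the list were 7 without WT replicate 1 and 5 without WT replicate 2. Mcl1, a survival gene, and Socs1 were called higher, by 0.25 and 0.36.

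The FGF and ERK list had no common direction. Of 34 tested members 9 were called lower and 5 higher, and the median of -0.08 turned positive under median-ratio scaling. Etv1 and Myc were the largest rises. Myc, a growth regulator, stood between 3.08 and 9.81 FPKM (median 6.12) against 1.37 and 1.46 FPKM, with differences of 1.77, 1.75 and 0.94 in the 3 lines. Fgf10 fell, from 6.41 and 6.43 FPKM to levels between 1.29 and 3.02 FPKM (median 1.87). Spred3 and Phlda1 rose by 0.61 and 0.54, while Spred1 and Dusp1, which also restrain ERK signalling, fell by 0.61 and 0.68 on the log2 scale.

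In the Nodal, activin and BMP list 11 of 34 tested members were called lower and 4 higher, with a median of -0.20, and 7 were lower when either WT replicate was left out. Lefty2, a Nodal antagonist and target, fell from 42.6 and 43.5 FPKM to levels between 5.24 and 20.03 FPKM (median 11.4). Id1, the target of BMP signalling, rose from 3.02 and 3.84 FPKM to levels between 8.25 and 18.1 FPKM (median 15.9). Inhbb, an activin subunit, rose from 2.17 and 2.22 FPKM to levels between 5.05 and 13.1 FPKM (median 10.7), and Smad6 and Bmp8a rose by 0.92 and 0.67. In the IGF axis 6 of 14 tested genes were called lower, led by Igfbp4, Igf2r and Insr, and Igfbp3 and Igf2bp1 were called higher, by 0.47 and 0.49.

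Naive pluripotency factors went both ways. Of 35 tested, 11 were called lower and 9 higher, with a median of -0.10 beside -0.09 for all tested genes. Dppa3, which shields DNA from methylation upkeep in germ cells and early embryos, stood between 1.66 and 9.27 FPKM (median 2.299) against 15 and 18.03 FPKM. It was low in E1-KO and E2-KO and nearer to WT in E3-KO (differences of -2.45, -2.68 and -0.96). Klf4 fell from 159 and 181 FPKM to levels between 68.9 and 87.9 FPKM (median 81.7), and Tfcp2l1 from 159 and 165 FPKM to levels between 73.4 and 108 FPKM (median 91.9). The largest rises in that list were Rarg, a retinoic acid receptor, from 9.75 and 12.2 FPKM to levels between 38.9 and 47.2 FPKM (median 42.6), Dppa2, from 20.9 and 21.5 FPKM to levels between 45.5 and 73.1 FPKM (median 62.5), and L1td1, from 84.1 and 96.5 FPKM to levels between 199 and 310.1 FPKM (median 253). Rarg was nearly uniform, at 1.78, 1.97 and 1.87.

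Of 16 tested genes of the formative and primed states, 3 were called higher and 2 lower. Dnmt3b and Dnmt3a were among the first and Otx2, a factor of the formative state, among the second, falling from 14.8 and 16.5 FPKM to levels between 3.53 and 6.02 FPKM (median 5.21), beside Grhl2. In the list of DNA methylation and TET enzymes 6 of 21 were called higher and 1 lower. Dnmt3b stood between 35.4 and 50.2 FPKM (median 40.9) against 15.3 and 17.4 FPKM, and Dnmt3a between 12.7 and 24.6 FPKM (median 20.7) against 7.67 and 8.59 FPKM, so that with Dnmt3l all 3 members of the de novo machinery were higher in every edited sample. Dnmt1, the maintenance enzyme, was the member called lower, between 72.5 and 92.4 FPKM (median 87.5) against 99.04 and 104 FPKM. The median of the list was 0.01, and the change was therefore one of single genes. Germline genes that DNA methylation silences were called lower in 11 of 40 (27.5%) and higher in 4. That share of lower calls was near the 25.7% over all tested genes. The largest falls in the list were in Tdrd12, Tex15 and Asz1. Tex15 fell from 25.6 and 27.2 FPKM to levels between 4.896 and 6.52 FPKM (median 6.12). Whether the rise of the de novo methylation genes had a part in these falls was not tested.

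Of 16 tested neural lineage genes 7 were called higher and 3 lower, with a median of 0.58. The medians of single lines were 0.31, 0.17 and 0.42, and the pooled median was 0.28 without the E3-KO line. A 2-group fit left 3 higher and 2 lower. The genes called higher included Nefl, between 15.01 and 30.8 FPKM (median 23.3) against 11.6 and 13.2 FPKM, Stmn2, between 81.7 and 120.2 FPKM (median 92.4) against 53.8 and 59.9 FPKM, and Nes, between 6.61 and 11.3 FPKM (median 8.34) against 4.98 and 6.11 FPKM. Pax6, a factor that starts neural fate, was called higher at a low level, between 0.612 and 2.498 FPKM (median 1.36) against 0.315 and 0.555 FPKM. The largest changes in the list were nevertheless falls, in the RNA-binding Msi1, by 1.11, and the receptor gene Notch3, by 1.07 on the log2 scale. Of 15 tested trophectoderm genes 1 was called in each direction, Tfap2c lower and Ascl2 higher. Of 6 tested mesendoderm and endoderm genes Gsc and Hnf4a were called lower and Sparc higher.

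By share of members, lysosome and autophagy genes and WNT genes had the largest excess of lower over higher calls among lists of at least 14 tested members. Of 66 tested, 33 were called lower and 2 higher, with a median of -0.37 and line medians of -0.37, -0.31 and -0.37 in the order E1-KO to E3-KO. Hexa, a chain of a lysosomal enzyme that trims gangliosides, stood between 14.3 and 25.8 FPKM (median 22.8) in the edited samples and at 77.1 and 85.9 FPKM in WT. Gabarapl1, which tags autophagosome membranes, fell from 18.3 and 19.4 FPKM to levels between 3.496 and 6.85 FPKM (median 5.801). Lamp2, a coat protein of the lysosome membrane, fell from 58.2 and 60.5 FPKM to levels between 24.9 and 31.3 FPKM (median 29.1), Ctsb, a cathepsin, from 34.8 and 35.1 FPKM to levels between 16.3 and 20.5 FPKM (median 19.03), and Atp6v1a, a subunit of the proton pump, from 106 and 113 FPKM to levels between 59.9 and 79.1 FPKM (median 72.3). The 2 members called higher were Atg2a and Atg101, by 0.81 and 0.31. Under median-ratio scaling the list still had 28 called lower and 3 higher.

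Of 184 tested solute carriers 77 were called lower (41.8%) and 9 higher (4.89%), with a median of -0.32. Slc2a3, a glucose transporter, fell from 479.5 and 495 FPKM to levels between 90.8 and 211 FPKM (median 202), Slc16a9, a monocarboxylate transporter, from 8.599 and 9.36 FPKM to levels between 1.61 and 3.23 FPKM (median 1.97), and Slc25a30, a mitochondrial carrier, from 15.04 and 15.1 FPKM to levels between 2.84 and 6.396 FPKM (median 5.203).

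**Figure D2:**
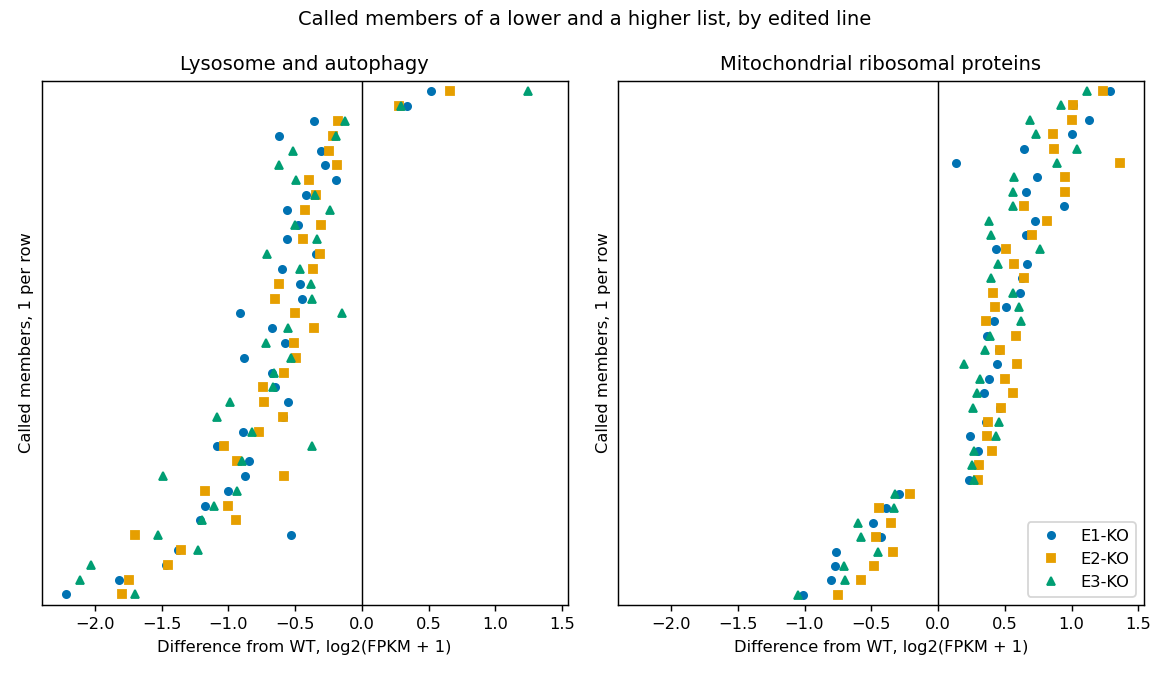
Difference from WT on the log2(FPKM + 1) scale in E1-KO (blue circles), E2-KO (orange squares) and E3-KO (green triangles) for every called member, 1 per row and ordered by the pooled difference, of 2 lists, lysosome and autophagy (left) and mitochondrial ribosomal proteins (right). The left panel has 33 genes below 0 and 2 above, the right panel 28 above and 8 below; that the lines share a side in each row follows from the definition of a call.

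In each of 4 lists of carbon metabolism, more genes were called lower than higher, as over all tested genes (25.7% and 13.3%). The shares called lower ran from 31.2% in fatty acid synthesis and oxidation to 51.9% in serine, threonine and one-carbon metabolism. Of 27 tested genes of serine, threonine and one-carbon metabolism 14 were called lower and 4 higher, with a median of -0.35. Aldh1l1, a cytosolic folate dehydrogenase, fell from 18.6 and 20.8 FPKM to levels between 2.65 and 6.38 FPKM (median 4.06), and Cbs, which turns homocysteine towards cysteine, from 14.7 and 16.8 FPKM to levels between 5.97 and 8.801 FPKM (median 6.95). Gldc, the glycine decarboxylase, followed. Phgdh, the first enzyme of serine synthesis, fell from 57.4 and 62.2 FPKM to levels between 27.6 and 49.9 FPKM (median 40.8). The 4 members called higher were Folr1 (a folate receptor), Ahcy, Tyms and Gcsh, by 1.01, 0.89, 0.72 and 0.66.

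In glycolysis and lactate metabolism 11 of 28 tested genes were called lower and 1 higher, with a median of -0.31. After Ldhb and Slc2a3, the third largest fall was Pgk1, from 138 and 174 FPKM to levels between 69.8 and 108 FPKM (median 89.03). Pgam1 was the member called higher, by 0.30. The line medians were -0.03, -0.23 and -0.52 in the same order of lines. Ldhb and Slc2a3 lie on chromosome 6, on which the median tested gene lay -0.62 below WT in E3-KO but -0.05 and -0.07 in E1-KO and E2-KO. Without the E3-KO line the list had 11 members called lower and 3 higher, and without WT replicate 1 it had 7 lower. Of hypoxia targets, a list that shares Slc2a1 with glycolysis, 11 of 27 were called lower and 1 higher (Epas1), led by Plin2, Egln3 and P4ha1; 4 were lower without WT replicate 1 and 5 without WT replicate 2.

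Of 29 tested genes of the TCA cycle and pyruvate entry 11 were called lower and 2 higher, and 4 were lower without WT replicate 2. Idh2, mitochondrial isocitrate dehydrogenase, fell from 126 and 135 FPKM to levels between 51.4 and 58.4 FPKM (median 53.8) and by almost the same amount in each line (-1.28, -1.21 and -1.29). Pcx, pyruvate carboxylase, and Idh3g followed, and Dld and Sucla2 were called higher, by 0.58 and 0.56. Fatty acid synthesis and oxidation had 10 of 32 called lower and 0 higher, led by Hadh, Acadl and Cpt1a, the gatekeeper of mitochondrial fat import, which fell from 52.5 and 59.6 FPKM to levels between 24.9 and 37.2 FPKM (median 30.4). Cholesterol synthesis showed another pattern: 2 of 22 tested genes, Stard4 and Hsd17b7, were called lower, and 19 of 22 (86.4%, against 23.6% of all tested genes) differed among the lines. Its medians ran from 0.44 for E1-KO through 0.10 for E2-KO to -0.47 for the third line.

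The nuclear genes of oxidative phosphorylation had no common direction, with 12 of 79 called higher and 19 lower and a median of -0.06 that turned positive under median-ratio scaling. Leaving out WT replicate 1 or 2 left 4 and 2 higher and 12 and 7 lower. Cox7a2l, a factor in respiratory supercomplexes, fell from 128 and 144.6 FPKM to levels between 37.8 and 55.5 FPKM (median 47.6). In the list of oxidative stress genes and metallothioneins 8 of 33 were called higher and 7 lower. Gpx1, a glutathione peroxidase, rose from 169 and 177 FPKM to levels between 257 and 498 FPKM (median 360.1), while Gstm1 fell from 22.3 and 26.4 FPKM to levels between 8.86 and 11.5 FPKM (median 10.6).

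In the lists of the integrated stress response, of p53 and its targets and of DNA repair, more genes were called lower than higher. Over all tested genes 25.7% were lower and 13.3% higher, and the shares called lower here ran from 35.5% (DNA repair) to 44.8% (integrated stress response). In the list of cytosolic heat shock proteins more genes were called higher than lower. Of 29 tested genes of the integrated stress response 13 were called lower and 3 higher, led by Nupr1, from 71.6 and 73.4 FPKM to levels between 32.2 and 48.4 FPKM (median 36.8), Ppp1r15b and Vldlr. Lower calls in this list were 6 without WT replicate 2. Asns, asparagine synthetase, fell from 532 and 596 FPKM to levels between 264 and 504 FPKM (median 386), and the members called higher were Aars, Eif2ak1 and Eif2ak2. Of the members called lower, Phgdh, Psat1 and Mthfd2 also count in the list of serine, threonine and one-carbon metabolism. Ddit4 also counts among the hypoxia targets. Of 33 tested p53 genes and targets 12 were called lower and 5 higher. Cdkn1a, the cell-cycle inhibitor p21, fell from 118 and 129.9 FPKM to levels between 42.2 and 82.1 FPKM (median 51.9), and Trp53inp1 from 88.7 and 89.5 FPKM to levels between 27.7 and 56.2 FPKM (median 36.6), although Trp53 itself was called higher, between 165 and 187 FPKM (median 175) against 132 and 133 FPKM. The other members called higher were Plk3, Sesn1, Gtse1 and Aen. The line medians of the p53 list were -0.56, -0.40 and 0.01, so that E3-KO stood near WT, and without that line 21 members were called lower. Pltp, its largest fall, overlaps Ctsa in the annotation. Of 62 tested DNA repair genes 22 were called lower and 4 higher (among them Nbn, Rnf168 and Msh6). The lower calls were 13 without WT replicate 1 and 9 without WT replicate 2. Ddb2 and Ddb1, the damage-binding pair of nucleotide excision repair, fell together, Ddb2 from 13.9 and 14.5 FPKM to levels between 4.96 and 8.56 FPKM (median 6.42) and Ddb1 from 217 and 245 FPKM to levels between 111 and 138 FPKM (median 127).

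Of 24 tested cytosolic heat shock proteins 12 were called higher and 2 lower, with a median of 0.38 and line medians of 0.34, 0.32 and 0.36; without WT replicate 1, 6 were called higher. Dnaja1, a co-chaperone of HSP70, rose from 49.2 and 53.1 FPKM to levels between 99.7 and 154 FPKM (median 136), and Hsph1, a nucleotide exchange factor, from 40.1 and 40.9 FPKM to levels between 69.4 and 89.8 FPKM (median 74.8). The members called lower were Hspb8, a small heat shock protein, by 0.99, and Hsf2, by 0.33 on the log2 scale. In the endoplasmic reticulum 7 of 28 folding and unfolded protein response genes were called higher and 7 lower. Calr, the calcium-binding chaperone calreticulin, rose from 337 and 349.8 FPKM to levels between 667 and 779 FPKM (median 692), by nearly the same amount in each line, and Hspa5 and Manf rose by 0.74 and 0.76. Edem1, Ero1l and Herpud1 were among the members called lower. In the proteasome list 14 of 46 tested members were called higher and 6 lower, and under median-ratio scaling 24 and 3. Psmc3ip, among the 14, is a recombination factor and no part of the proteasome. The median of the list was 0.17, and it was 0.14 without WT replicate 1 and 0.24 without WT replicate 2.

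In lists of genes for making ribosomes and for RNA processing, more members were called higher than lower, although most members were not called. Of 75 tested mitochondrial ribosomal proteins 28 were called higher (37.3%) and 8 lower (10.7%), with a median of 0.15. Mrpl46 rose from 19.6 and 20.2 FPKM to levels between 43.2 and 49.99 FPKM (median 48.1), with differences of 1.29, 1.23 and 1.11. Mrps11 overlaps it in the annotation. Mrpl20 and Mrpl12 followed. Without WT replicate 1 or 2 the higher calls were 16 and 18. Of 70 genes of ribosome biogenesis and RNA polymerases I and III 25 were called higher and 7 lower, and leaving out either WT replicate left 10 called higher. Nop56, a core protein of snoRNA particles, rose from 264 and 353 FPKM to levels between 376 and 1159 FPKM (median 545), and its span holds snoRNA genes, whose own reads were not separated here. Nop16 rose from 31 and 31.9 FPKM to levels between 46.3 and 63.5 FPKM (median 57.9), and Ncl, the nucleolin gene, from 466 and 489.5 FPKM to levels between 633 and 993 FPKM (median 862).

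Of 80 cytoplasmic ribosomal protein genes 25 were called lower (31.2%) and 7 higher (8.75%), near the shares over all tested genes (25.7% and 13.3%), with a median of -0.16 beside -0.09. The counts were 18 lower and 11 higher under median-ratio scaling, 15 and 3 without WT replicate 1, and 9 and 1 without WT replicate 2. Rps15a stood between 417 and 747 FPKM (median 486) against 1255 and 1478 FPKM and Rps16 between 496 and 761 FPKM (median 694) against 1496 and 1616 FPKM, and Rpl22l1, a paralog of Rpl22, fell from 61.8 and 65.97 FPKM to levels between 11.4 and 29.4 FPKM (median 18.5). These short genes have many processed copies in the genome, and how such reads were assigned is not given in the sources used here. In the list of translation factors 17 of 62 members were called higher and 10 lower. Its called members include Eif2ak1, Eif2ak2, Eif2ak3, Eif4ebp2 and Eef2kmt, which act on translation factors and are not such factors themselves. The median of the list was 0.03, and it was 0.01 without WT replicate 1 and 0.04 without WT replicate 2. Eef2, the elongation factor, was nevertheless lower by a uniform amount, from 1176 and 1295 FPKM to levels between 621 and 686 FPKM (median 654), and Eif2b2, part of the exchange factor that eIF2 needs, rose from 31.5 and 33.4 FPKM to levels between 53.6 and 81.8 FPKM (median 58.8).

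Of 105 tested splicing and RNA-binding factors 29 were called higher and 14 lower, under median-ratio scaling 46 and 9, without WT replicate 1 22 and 9, and without WT replicate 2 18 and 8. Snrpd3, a core Sm protein, rose from 222 and 276 FPKM to levels between 496 and 623 FPKM (median 585), and Hnrnpa2b1 from 189.7 and 198 FPKM to levels between 291 and 541 FPKM (median 457). Rbm47, an RNA-binding protein of epithelia, was the largest change in the list and a fall, from 15.4 and 16.7 FPKM to levels between 2.25 and 13 FPKM (median 3.24), close to WT in E3-KO (-0.35) and far below it in E1-KO and E2-KO (-2.35 and -2.00).

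Replication-dependent histone genes were called higher in 14 of 43 and lower in 2 (Hist1h4m and Hist1h2al), with a median of 0.39, and in 9 when either WT replicate was left out. After Hist1h2ad, the largest rises were Hist1h2ba, from 6.74 and 9.899 FPKM to levels between 21.6 and 40.9 FPKM (median 27.3), and Hist1h2aa, from 8.84 and 11.1 FPKM to levels between 20.8 and 40.05 FPKM (median 29.4). Most transcripts of this class lack a poly(A) tail, and the near-identical copies share reads, so single members are uncertain. DNA replication genes were called higher in 9 of 47 and lower in 7, and mitosis genes higher in 10 of 44 and lower in 9. The higher calls in mitosis were 5 and 4 without WT replicate 1 or 2, and 16 without the E3-KO line. Ccne1, the cyclin that drives entry into S phase, rose from 29.96 and 31.04 FPKM to levels between 51.4 and 116 FPKM (median 91.6), after Myc the largest rise among G1 cyclins, kinases and inhibitors, a list with 4 of 33 called higher and 11 lower, or 6 lower without WT replicate 2. Pttg1, the securin gene, rose from 114 and 119.5 FPKM to levels between 195 and 279 FPKM (median 234), and Bub1, a checkpoint kinase, fell from 65.1 and 71.05 FPKM to levels between 24.9 and 43.1 FPKM (median 32.8).

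Chromatin remodellers were called higher in 7 of 41 and lower in 3, histone lysine methylation enzymes in 5 and 5 of 40, Polycomb genes in 4 and 8 of 35, and CTCF, cohesin and Mediator genes in 7 and 8 of 47. Beside Dpf1, the remodellers Baz1a and Chd4 rose, the latter from 91.5 and 97.9 FPKM to levels between 137 and 219 FPKM (median 159). Suz12, the core subunit of Polycomb complex 2, fell from 77.1 and 85.05 FPKM to levels between 43.7 and 54.5 FPKM (median 50.3). Numbered zinc finger genes were called lower in 77 of 339 (22.7%) and higher in 26 (7.67%), with 52 and 40 under median-ratio scaling and 42 and 43 under quantile normalization. Leaving out WT replicate 1 or 2 gave 37 and 36 lower and 16 and 14 higher. Under median-ratio scaling the higher calls outnumbered the lower in Polycomb genes (6 and 4), in CTCF, cohesin and Mediator genes (10 and 6), in imprinted genes (8 and 6) and in naive pluripotency factors (12 and 10). Imprinted genes went both ways, with 8 of 30 lower and 6 higher; Dlk1 rose from 0.882 and 1.09 FPKM to levels between 2.67 and 7.24 FPKM (median 3.93), and Igf2r fell from 35.3 and 39.4 FPKM to levels between 12.8 and 18.96 FPKM (median 15.1).

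In the lists below of the cell surface and matrix, 31.2% (cadherins and desmosomes) to 40.9% (claudins and tight junctions) were called lower. The share over all tested genes was 25.7%. Integrins, with 21.4% lower and 21.4% higher, and ion channels, with 17.4% lower and 10.9% higher, had lower shares of falls than that. Heparan sulfate genes and sulfatases were called lower in 9 of 24 and higher in 1 (Xylt1). Sdc4, a syndecan that carries heparan sulfate, fell from 81.03 and 81.9 FPKM to levels between 10.9 and 44.1 FPKM (median 14.02), with E3-KO closest to WT, and Gpc3, a glypican, from 17.5 and 18.2 FPKM to levels between 2.49 and 9.46 FPKM (median 6.11). Basement membrane and matrix genes were called lower in 10 of 28 and higher in 4 (Sparc, Timp2, Col5a1 and Timp1). Lama1, the laminin chain of embryonic basement membranes, fell from 28.1 and 29.4 FPKM to levels between 4.73 and 13.1 FPKM (median 9.37), and Fn1, fibronectin, from 360.1 and 383 FPKM to levels between 141 and 229 FPKM (median 157). Claudins and tight junction genes were called lower in 9 of 22 and higher in 3, led by Crb3, Tjp3 and Cldn4. Cadherins and desmosome genes were called lower in 5 of 16 and higher in 0, and the 5 were Dsp, Dsg2, Jup, Celsr1 and Ctnnd1. The median of this list was -0.01, beside -0.09 for all tested genes, and without WT replicate 2 it was 0.02. Dsp, desmoplakin, fell from 19.3 and 23.1 FPKM to levels between 3.898 and 9.14 FPKM (median 4.94). Guidance genes were called lower in 13 of 32 and higher in 3, led by Slit2, Ephb3 and Efna3, with 7 lower without WT replicate 2; Ephb3 fell from 11.3 and 12.3 FPKM to levels between 4.07 and 5.18 FPKM (median 4.85). The tetraspanin list had 8 of 20 called lower and 2 higher (Cd37 and Tspan17), but 1 of the 8 is Tspo, the mitochondrial translocator protein, which is no tetraspanin.

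Keratins and other intermediate filaments were called higher in 7 of 15 and lower in 1 (Krt19), with a median of 0.55. The 7 were Nefh, Ina, Prph, Nefl, Nefm, Nes and Lmnb1, of which Lmnb1 is a nuclear lamin and the other 6 are filaments of nerve cells or their precursors. Nefl, Nefm and Nes also count among the neural lineage genes called higher. Ina stood between 3.69 and 10.4 FPKM (median 6.65) against 1.604 and 1.73 FPKM and Prph between 1.497 and 7.48 FPKM (median 3.75) against 1.03 and 1.27 FPKM, both highest in E1-KO. Actin, myosin and contractile genes were called higher in 13 of 50 and lower in 8, and Acta2, smooth muscle actin, was highest in E1-KO (2.14, against 0.68 and 0.13).

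Of the interferon response and viral sensing list 6 of 23 were called higher and 2 lower (Ifitm1 and Ifi30). Ddx58, the sensor RIG-I, rose from 2.75 and 2.88 FPKM to levels between 6.41 and 14.6 FPKM (median 8.84), H2-D1 from 1.46 and 1.93 FPKM to levels between 3.55 and 5.87 FPKM (median 5.27), and Ifitm1 fell from 138 and 147 FPKM to levels between 50.3 and 78.2 FPKM (median 58.1).

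**Figure D3:**
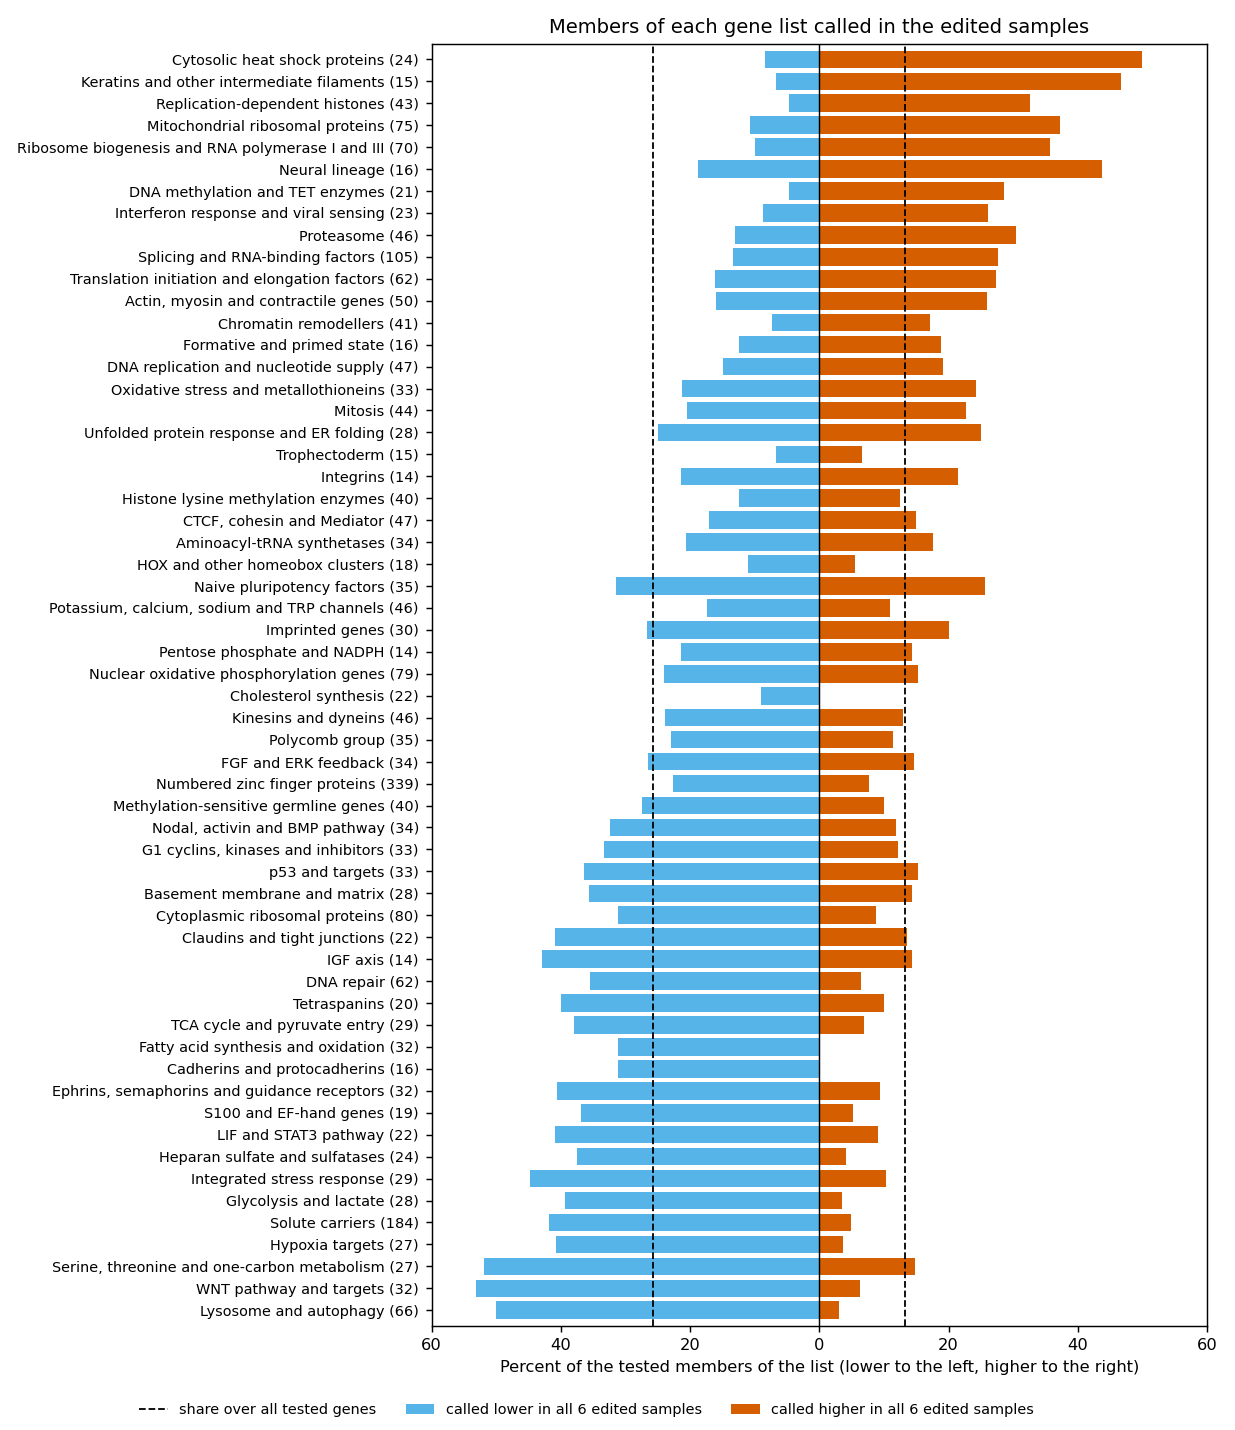
Share of the tested members of each gene list called lower (blue, to the left) and higher (orange, to the right) in the edited samples; the number tested stands in parentheses, lists are ordered by the difference of the shares, and dashed lines give 25.7% lower and 13.3% higher over all tested genes. Lysosome and autophagy genes have 50% lower and 3.03% higher, and cytosolic heat shock proteins 8.33% and 50%.

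**Figure D4:**
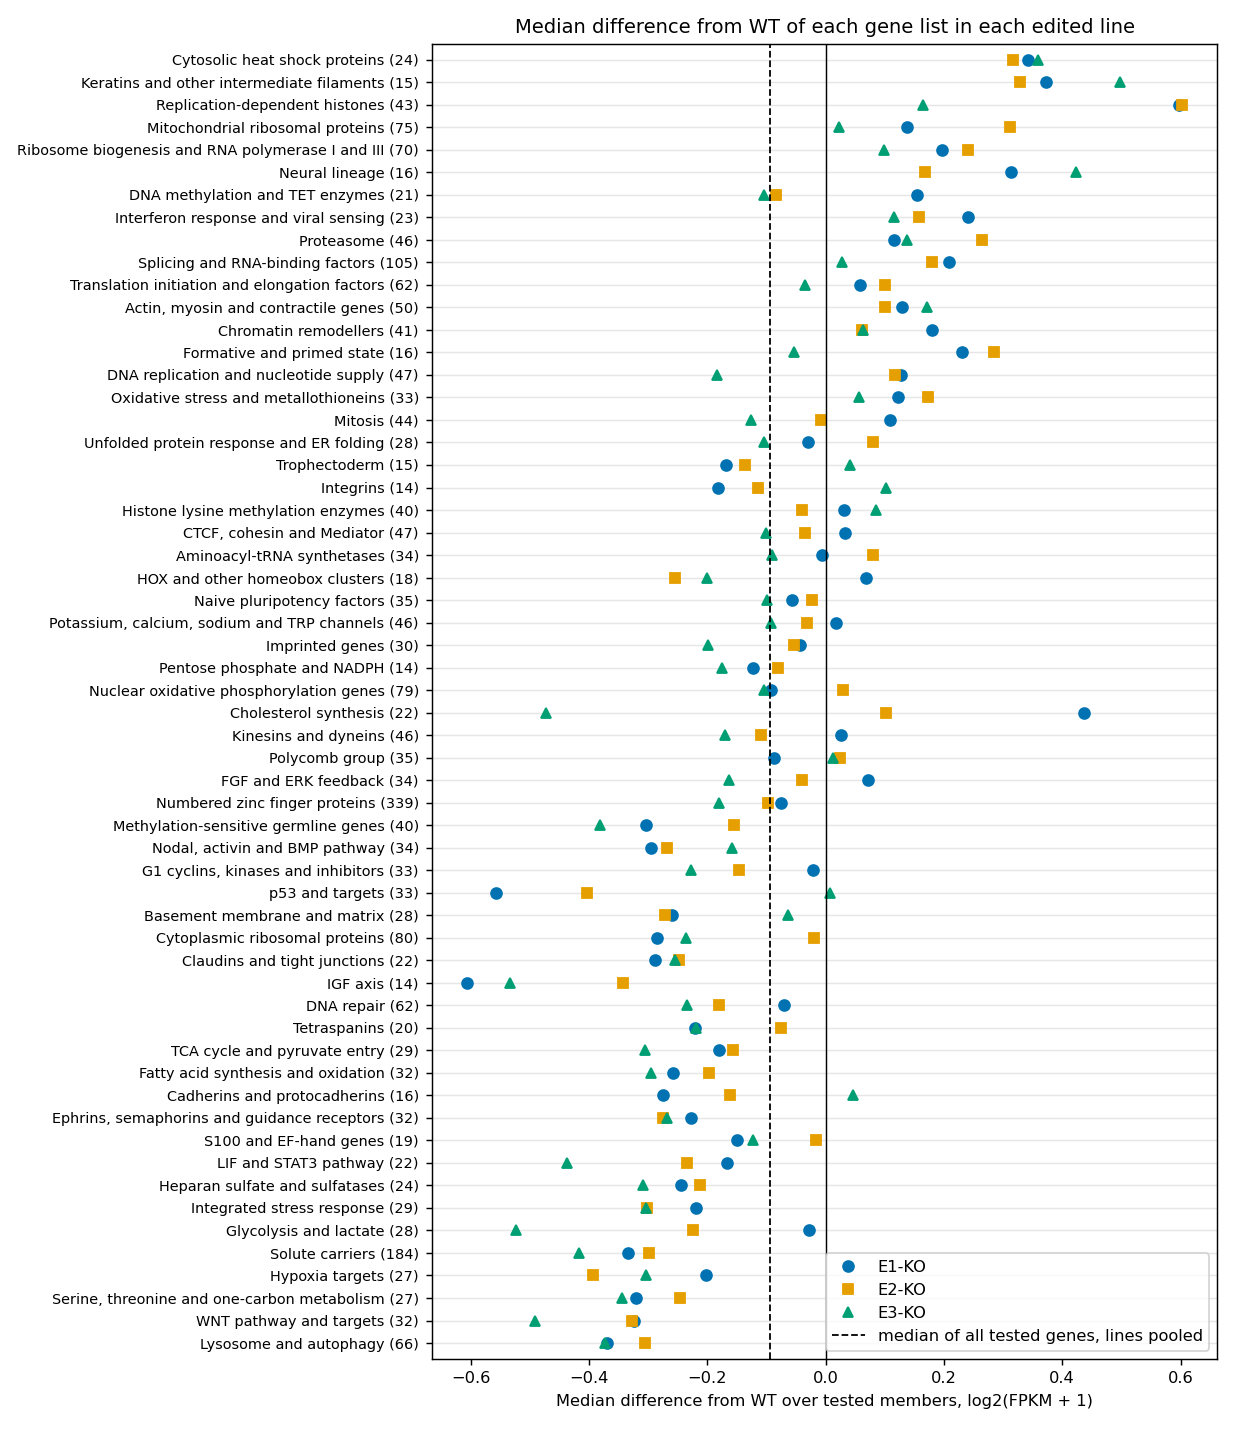
Median difference from WT over the tested members of each list in E1-KO (blue circles), E2-KO (orange squares) and E3-KO (green triangles), in the same order of lists; the dashed line marks the median of all tested genes, -0.09. In lysosome and autophagy genes the lines lie between -0.37 and -0.31, in cholesterol synthesis between -0.47 and 0.44.

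Families were also formed by gene symbol alone, without regard to the lists. Of 189 symbol stems with at least 8 tested members, Aldh (aldehyde dehydrogenases) had 9 of 12 called lower, Kctd 8 of 11, Tm 6 of 9, Alg (enzymes that build N-glycans) 7 of 11, Man (mannosidases) 5 of 8 and Zkscan 5 of 8, and higher calls numbered 1 each in Kctd and Alg and 0 in the others. Among the stems with most higher calls, Dnajb (co-chaperones) had 5 of 10, Sf (splicing factor subunits) 5 of 10, Olfr (olfactory receptors) 4 of 8, Mrpl 19 of 47, Exosc (RNA exosome) 3 of 8 and Hspa (HSP70 proteins) 3 of 8. The last pair tied with other stems and was taken in alphabetical order. The stem Tm joins unrelated transmembrane families.

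Called genes were spread over all chromosomes. Outside chromosome 6, between 22.9% and 29.4% of the tested genes of a chromosome were called lower and between 10.2% and 15.1% higher. On chromosome 6, 174 of 536 genes were called lower (32.5%) and 30 higher (5.6%), beside the shift of that chromosome in E3-KO. Without chromosome 6 the calls were 1462 higher and 2713 lower. Genes called higher had a median summed exon length of 3548 bases and genes called lower of 4970, against 4412 for all tested genes, in the GRCm38 annotation. Their median GC content was 50.5%, 49.5% and 49.8%, and their median WT level 16.5, 17.2 and 13.8 FPKM in the same order.

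Equal direction did not mean equal size. The F test among the lines passed for 2656 of all tested genes (23.6%), for 264 of the genes called higher (17.7%) and for 599 of those called lower (20.7%). Since the lines share the WT samples, their differences from WT are not independent of each other.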

How the data were processed

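Total RNA of 8 samples (4 groups of 2 biological duplicates) had been sequenced in pairs of 150 bases. The deposited values are FPKM per gene; the submitters' processing notes list Trimmomatic 0.36, TopHat2 2.0.12, Cufflinks 2.2.1 and build mm9, with no role or order given, and the unit is inferred from Cufflinks and from values that are not whole, since the file headers name only the sample. FPKM are not counts, and they carry no absolute depth. Each file held 18774 rows for 17812 identifiers. Of 660 identifiers with several rows, 571 were resolved by their place in the file order and 89 were left out. Symbols, lengths and overlaps came from GENCODE M21 on GRCm38, a later build than that of the files.

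Values were transformed as log2(FPKM + 1). Genes with a mean of 1 FPKM or more over the 8 samples were fitted with limma 3.58.1 in R 4.3.3 (limma-trend, 4 groups in 1 fit, 4 residual degrees of freedom); the contrast was the mean of the 3 edited lines minus WT, two-sided, with Benjamini-Hochberg adjustment over all 11268 genes and a threshold of 0.05. The F test among the lines used the same fit. The fit was tested on simulated data: of 200 genes changed by 0.5, 1 and 2 on the log2 scale among 11268, 37.5%, 86.5% and 99.5% were recovered. The changed genes were drawn from the better expressed ones, and all 6 edited samples received the same change. No differences among the lines were simulated, so recovery where lines differ, as in these data, was not tested.

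Of 66 gene lists 64 had tested members. Some lists share members, so their counts are not independent of each other. Members, gene lists and tests were chosen with earlier results of these data known. The genes named are Sox2, the 3 called members with the largest change of each list described, the 12 largest rises and falls among called genes with a highest group mean of at least 5 FPKM and a symbol that is not a predicted or clone name, and the 3 largest in each direction with an adjusted p of the F test over 0.5. Other genes named, such as those behind counts of 5 or fewer or further members of a list, and the promoters printed, were chosen after their values were seen. Some genes that the rule names are not reported here. Alternatives in fit, scaling, filter, pseudocount, threshold, identifiers and samples were run.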

Additional observations from a re-analysis of the deposited data

Results flagged for a closer look

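Of 218 called genes named in the text, 33 differed among the 3 edited lines at an adjusted p under 0.01 (limma F test), although their 6 edited samples lay on the same side of WT. Over all 11268 tested genes, 1025 differed at that threshold. Many of the named genes were picked by the size of their change. The value given for each is the gap between the highest and the lowest line on the log2(FPKM + 1) scale. The line nearest to WT was E3-KO in 16 genes, E1-KO in 10 and E2-KO in 7, a split given for these named genes only.

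With E3-KO nearest to WT, the gap was 2.01 in Acta2, 2.00 in Rbm47, 1.91 in Krt19, 1.73 in Dppa3, 1.61 in Sdc4 and 1.50 in Prph. Acta2 differed from WT by 2.14 (E1-KO), 0.68 (E2-KO) and 0.13 (E3-KO), and Krt19 by -0.29, -2.11 and -0.21 in the same order. In the same class the gap was 1.20 in Cd37, 1.13 in Trpm1, 1.10 in Hspb8 and 1.04 in Inhbb. It was 0.98 in Ina, 0.90 in Dsp, 0.76 in Gldc, 0.75 in Tdrd12, 0.75 in Trp53inp1 and 0.74 in Tfap2c.

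With E1-KO nearest to WT, the gap was 1.50 in Cdx1, 1.31 in Ldhb, 1.21 in Zp3, 1.18 in Gpc3, 1.18 in Slc2a3 and 0.90 in Aldh1l1. It was 0.73 in Atg2a, 0.71 in Msi1, 0.69 in Baz1a and 0.67 in Phgdh.

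With E2-KO nearest to WT, the gap was 1.35 in Vill, 1.32 in Dmgdh, 1.15 in Lama1, 1.15 in Bhmt2, 0.82 in Sox2, 0.72 in Edem1 and 0.61 in Sparc. Both Sox2 and Lama1 were lowest in E1-KO. Dppa3, Ldhb, Slc2a3, Aldh1l1 and Edem1 lie on chromosome 6, the median gene of which was lower in E3-KO; the part of that shift in these gaps was not tested.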

How the results depend on the processing

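Called genes numbered 1494 higher and 2893 lower. They were 1009 and 1924 in a 2-group fit that ignored the lines, 1 and 0 with line means (2 residual degrees of freedom, with 1 WT value), and 198 and 353 when a change of at least 1 was also asked. With single libraries left out, the lone remaining sample being assumed to vary like the other groups, the called genes ranged from 929 to 1613 higher and from 1574 to 3067 lower, with the lowest of both without a WT replicate. Without the E3-KO line, 2609 genes had all 4 remaining edited samples above WT, against 1722 with all 6; fewer samples make that order easier to meet. Quantile normalization and median-ratio scaling moved the share of higher among called genes from 34.1% to 48.0% and 49.3%.

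Genes that differed among the lines numbered 2656. They were 1283 without the E1-KO line, 256 without the E3-KO line and 1025 at an adjusted p under 0.01, and ranged from 1306 to 3060 with single libraries left out. The cause was not tested.

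The replicate numbers do not pair the samples: deviations of same-numbered samples correlated by 0.005 on average, from -0.042 to 0.0895. With the replicate block the calls were 1464 higher, 2812 lower and 2308 among the lines, and of the named genes 2 lost their call, Msh6 and Nefm. No named called gene changed direction under quantile normalization, median-ratio scaling or scaling without the 50 highest genes. In the other alternatives the direction of a called gene was fixed by the order of its samples. Leaving aside line means, the 2-group fit, the size threshold and the WT replicates left out, the named genes that lost their call in at least 4 alternatives were Nefm, Rdh13, Socs1, Msh6, Scamp1, Dnmt1, Pou5f1, Hist1h2al, Igfbp3, Herpud1, Timp2, Celsr1, Krt19, Ahcy, Mcl1 and Aen. The absolute depth of the libraries is unknown, so genes near 1 FPKM have a precision that cannot be stated.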

Other observations

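Further lists are given beside the 13.3% called higher and 25.7% called lower over all tested genes. Of 34 aminoacyl-tRNA synthetases 6 were called higher and 7 lower, of 46 kinesins and dyneins 6 and 11 (6 and 7 lower without WT replicate 1 or 2), of 46 ion channel genes 5 and 8, of 14 integrins 3 and 3, of 14 pentose phosphate and NADPH genes 2 and 3, and of 18 HOX and other homeobox genes 1 and 2. Of 19 S100 and EF-hand genes 1 was called higher and 7 lower, and of 5 genes of the 2-cell-like state 0 and 1. The lists of mitochondrially encoded genes and of small nucleolar RNA host genes had 0 members in the tested table.

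Called genes next to each other among the tested genes of a chromosome, in the order of the GRCm38 annotation, formed 18 runs of at least 5 genes called lower and 1 run of 5 called higher; these runs were looked for after the data were seen. The longest, 7 genes on chromosome 13, held Bhmt2 and Dmgdh, enzymes of betaine and dimethylglycine breakdown, beside Lhfpl2, Scamp1, Ap3b1, Tbca and Wdr41. It was broken under median-ratio scaling, where Bhmt2, Scamp1, Ap3b1 and Tbca lost their call, and under quantile normalization, where Bhmt2, Scamp1 and Wdr41 did. A run of 5 on chromosome 3 held the glutathione transferase genes Gstm5, Gstm3, Gstm2 and Gstm1, near-identical copies that share reads and are uncertain one by one. A run of 6 on chromosome 11 opened with Axin2.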
